A study of Mus musculus with 18 samples.

Results

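The genes described here are 30 enzymes, transporters and structural proteins of the absorptive enterocyte. Most are of the brush border, and all are called brush-border genes below. They were listed by name for their function, with earlier results of these data known, out of 19938 named genes measured on the arrays. They comprised 4 genes of carbohydrate digestion, 4 of sugar transport, 6 of peptide digestion, 4 of peptide and amino acid transport, 2 of phosphate ester and sphingomyelin digestion, 5 of ion, phosphate, sulphate and monocarboxylate transport, 2 of vitamin B12 uptake and 3 markers of enterocyte maturity. All 30 were on the platform with 1 probe set each, and all 30 passed the filter on dim genes, which required a value above the array's 25th percentile in at least 3 arrays. Values are log2 expression values, in which a difference of 1 is a doubling, and they are compared only within a gene, since probes of different genes differ in brightness.

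The study asked whether the transcription factor Stat3 is required for the progression of intestinal tumours in APCmin mice, whose mutant Apc allele activates WNT signalling. RNA was measured on 18 Affymetrix arrays in 6 groups of 3. The tumour groups were male tumours labelled Stat3-/- (replicates 10 to 12) and Stat3fl/fl (7 to 9), and female tumours labelled Stat3-/- (16 to 18) and Stat3fl/fl (13 to 15). Intestinal epithelial cells came from Stat3-/- mice (4 to 6) and Stat3fl/fl mice (1 to 3). Per the series text, the floxed alleles, which all groups carry, were deleted by Cre expressed from the Villin promoter, so deletion was directed to the epithelium and the other cells of a tumour kept their Stat3 alleles. The tumour mice carried APCmin/+. For the epithelial cells the labels give no sex, age, gut segment or Apc genotype, and for no group do they give an age. The sample descriptions, also those of the epithelial cells, name chemically induced (AOM/DSS) colorectal tumours in APCmin mice. The series text says instead that the APCmin allele causes tumours mostly in the small bowel. From which gut segment a tumour was taken is thus unknown. Whether the epithelial cells came from treated mice or from APCmin mice is likewise unknown. The labels do not say that the arrays came from separate animals, and p-values then cover only the spread among these arrays, part of which may be technical.

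The brush border is the carpet of microvilli on the luminal face of the absorptive enterocyte. Enzymes anchored in it cut disaccharides, small peptides and lipid esters, and transporters beside them carry the products into the cell. Enterocytes switch these genes on as they leave the crypt and mature along the villus, under transcription factors of the HNF1, HNF4, CDX and GATA families, and most of the genes are more active in the small intestine than in the colon.

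Stat3 itself followed the labels. It was lower in Stat3-/- than in Stat3fl/fl samples, with differences of -1.96 in epithelial cells, -2.09 in male tumours and -1.87 in female tumours, with adjusted p of 1.23e-05, 4.7e-06 and 1.24e-05 (limma, Benjamini-Hochberg); whether its probe set lies in the deleted exons is not known. The mean of 13 general epithelial genes lay between 11.01 and 11.48 on every array, tumours and epithelial cells alike. The mean of 13 fibroblast and matrix genes was 8.75 to 10.34 in tumours, against 6.26 to 6.69 in epithelial cells, so the tumours were bulk tissue with stroma and the epithelial arrays carried little of it. Control male tumour replicate 9 and control female tumour replicate 15 stood apart from the other 10 tumours by colon genes: Hoxd13 was 8.25 and 9.10 in them, against 4.82 to 5.59 in the others, and Gata4, a factor of the proximal gut, was 6.92 and 6.84, against 8.86 to 9.86. The colonic carbonic anhydrase Car1 was 10.90 and 10.24 in them and 8.40 in deleted female tumour replicate 16, against 4.36 to 5.05 in the other 9 tumours.

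In tumours the brush-border genes were low as a block. In Stat3-deleted tumours 22 of the 30 genes were lower than in Stat3-deleted epithelial cells and 0 were higher at an adjusted p under 0.05 (limma, Benjamini-Hochberg over 17316 tested genes), while 36.2% of all tested genes were lower and 30.3% higher. In control tumours 29 of the 30 were lower than in control epithelial cells and 0 were higher, while 35.3% of all tested genes were lower and 30.4% higher. The median difference of the 30 genes was -1.92 in deleted and -2.85 in control samples, against -0.07 and -0.08 over all tested genes. Different arrays enter the deleted and the control comparison, and the difference between them is the interaction tested at the end, in which 0 of the 30 genes passed. Of the 100 largest falls among all tested genes, 15 were brush-border genes in deleted tumours and 16 in control tumours. Without control replicates 9 and 15, 28 of the 30 were lower in control tumours, against 29.9% of all tested genes, with a median of -2.15. The falls of Sis, Anpep, Enpep, Krt20 and Alpi, which then were more than 1.5 times smaller on the log2 scale, are given below both with and without these arrays. All 12 tumours lay below all 6 epithelial arrays for 23 of the 30 genes, against 14.9% of tested genes. In bulk samples, fewer enterocytes and less of an RNA per enterocyte cannot be told apart. The fibroblast, muscle, endothelial, macrophage and neutrophil markers that were higher in tumours are given further on, and their part in these falls was not tested.

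**Figure D1:**
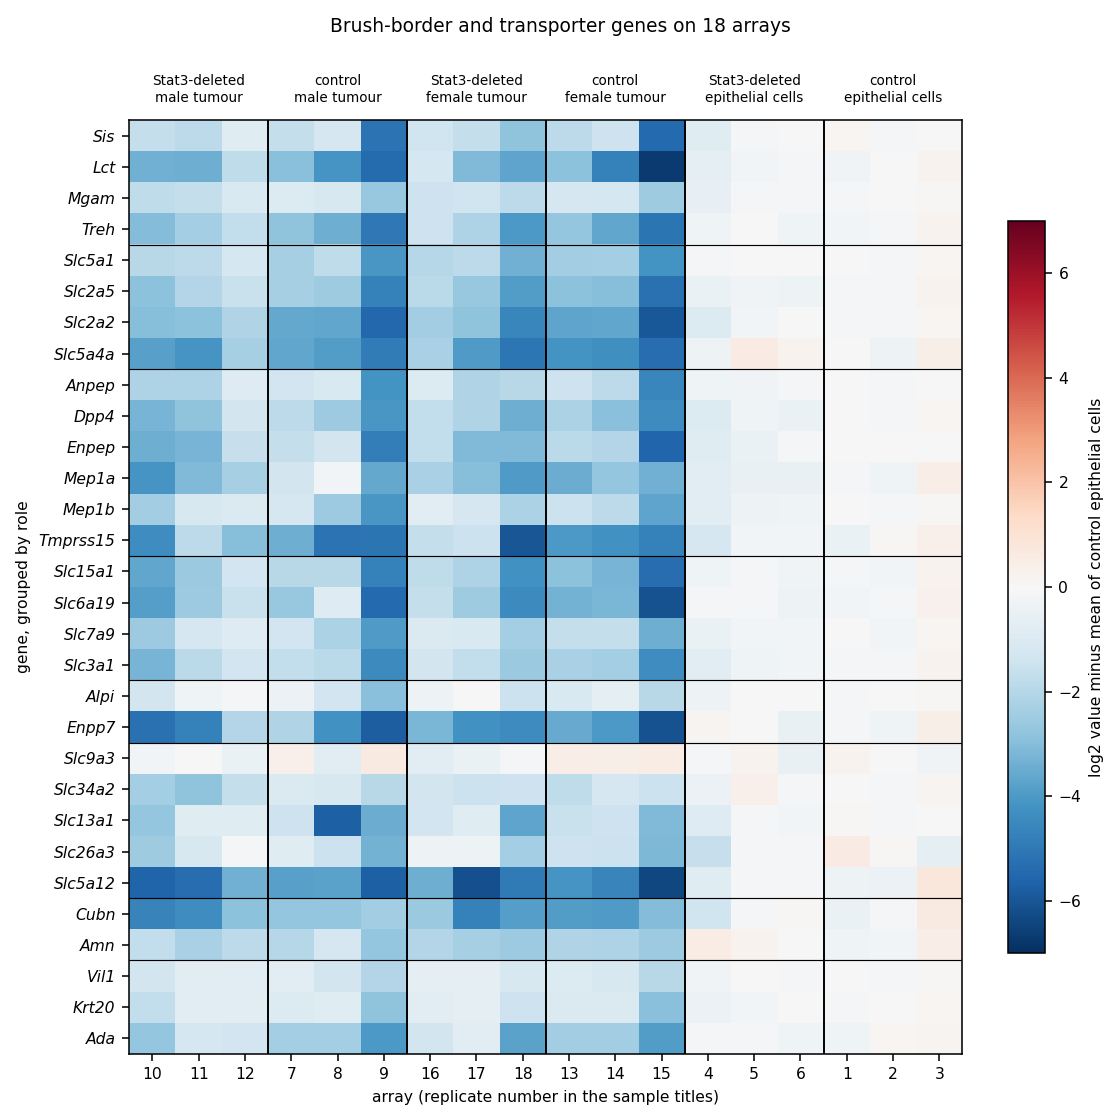
Each row is a brush-border gene, ordered by role, and each column an array, with Stat3-deleted groups left of their controls and tumours left of epithelial cells. Colour is the log2 value minus the gene's mean in the 3 control epithelial arrays. The tumour columns are blue for nearly all rows, in most rows deepest in control replicates 9 and 15, and the row of Slc9a3 is the exception.

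**Figure D2:**
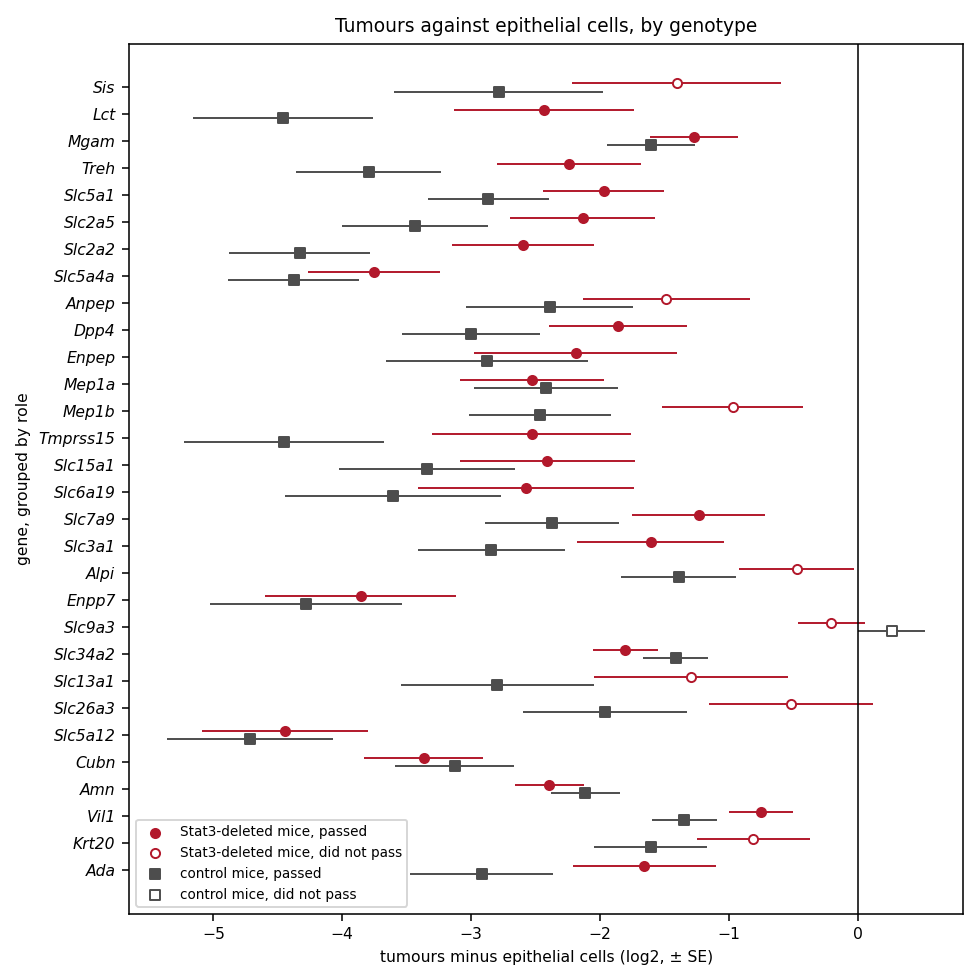
Points are the tumour minus epithelium differences of the 30 genes (log2, horizontal axis) with their standard errors, for Stat3-deleted samples (circles) and control samples (squares), ordered by role; open symbols did not pass. Differences run down to -4.72 for Slc5a12, and Slc9a3 lies near 0.

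The stretch of DNA just upstream of the start site is shown for 5 members from 3 of these roles. RefSeq windows of 250 bases before the start site (GRCm38.p6, on the strand of the gene) matched 27 of the 30 genes by symbol; Mep1b, Slc13a1 and Slc5a12 have none here. Capitals mark matches, on either strand, to motifs of factors that act in enterocytes. The letters searched were GTTAAT for HNF1, then CAAAGTC for HNF4, then CAATAAA for the CDX family, then AGATAA for the GATA family, and lastly TTCNNNGAA for the STAT family. Sis at chr3:72967864-72968113 (minus strand) held an HNF1 and a CDX match, Lct at chr1:128328319-128328568 (minus strand) held 2 GATA matches, Treh at chr9:44672983-44673232 (plus strand) held 2 HNF4 matches, Slc3a1 at chr17:85028097-85028346 (plus strand) held GATA, CDX and HNF4 matches, and Enpp7 at chr11:118987931-118988180 (plus strand) held a GATA and an HNF4 match.
Sis: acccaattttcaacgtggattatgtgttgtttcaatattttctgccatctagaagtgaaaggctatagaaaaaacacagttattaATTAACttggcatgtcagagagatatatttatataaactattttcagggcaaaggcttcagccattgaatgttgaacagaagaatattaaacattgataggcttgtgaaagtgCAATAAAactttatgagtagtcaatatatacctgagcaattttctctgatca
Lct: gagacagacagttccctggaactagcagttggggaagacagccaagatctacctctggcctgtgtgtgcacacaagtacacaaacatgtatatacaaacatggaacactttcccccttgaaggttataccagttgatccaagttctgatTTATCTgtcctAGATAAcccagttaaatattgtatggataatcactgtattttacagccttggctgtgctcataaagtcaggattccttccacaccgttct
Treh: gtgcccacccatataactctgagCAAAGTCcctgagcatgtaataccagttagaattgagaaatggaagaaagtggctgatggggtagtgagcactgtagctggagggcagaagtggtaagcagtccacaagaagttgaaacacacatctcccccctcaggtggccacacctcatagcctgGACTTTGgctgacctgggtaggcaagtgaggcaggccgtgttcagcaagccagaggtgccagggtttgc
Slc3a1: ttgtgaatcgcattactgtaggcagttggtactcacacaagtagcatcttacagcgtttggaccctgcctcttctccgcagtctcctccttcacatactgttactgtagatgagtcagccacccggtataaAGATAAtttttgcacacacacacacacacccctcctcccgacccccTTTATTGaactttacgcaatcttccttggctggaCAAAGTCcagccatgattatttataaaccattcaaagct
Enpp7: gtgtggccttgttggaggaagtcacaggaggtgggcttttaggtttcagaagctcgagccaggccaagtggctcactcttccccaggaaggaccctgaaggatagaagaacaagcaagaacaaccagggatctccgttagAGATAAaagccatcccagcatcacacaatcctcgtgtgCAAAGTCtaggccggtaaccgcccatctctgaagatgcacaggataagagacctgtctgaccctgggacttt
Of the 27 windows, 3 held the HNF1 motif (11.1%), 4 the HNF4 motif (14.8%), 2 the CDX motif (7.4%), 7 the GATA motif (25.9%) and 3 the STAT motif (11.1%). Among all 27025 windows of the table the shares were 6.5%, 3.8%, 4.4%, 10.2% and 7.1% in the same order. The STAT matches were in the windows of Enpep, Cubn and Ada. The windows of Dpp4, Mep1a, Slc6a19, Slc7a9, Slc9a3 and Slc26a3 do not lie at the gene's annotated start. For these genes the first listed window was used. The counts above include GATA matches of Dpp4 and Slc7a9 and HNF1 matches of Slc26a3 in such windows. All 5 windows shown hold matches and do not stand for the set. Other windows held no match to any of these motifs, among them those of the sugar transporters Slc5a1, Slc2a5, Slc2a2 and Slc5a4a. Whether motifs relate to the falls was not tested. A match describes the letters of the window and is no evidence of binding.

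The sugar-digesting enzymes were lower in deleted tumours in 3 of 4 cases and in control tumours in all 4. Lactase, Lct, which splits milk sugar, was 8.92, 8.88 and 10.50 in deleted male tumours, 9.38, 8.16 and 6.88 in control male tumours, 11.04, 9.19 and 8.62 in deleted female tumours and 9.43, 7.56 and 5.60 in control female tumours. Its epithelial values were 11.63, 12.09 and 12.15 in deleted and 12.05, 12.28 and 12.55 in control cells. No tumour reached the epithelial range, and replicates 9 and 15 were the lowest of the 12 tumours. The difference was -2.43 ± 0.70 (SE, adjusted p = 0.00625) in deleted and -4.46 ± 0.70 (SE, adjusted p = 7.18e-05) in control tumours, which is 5.39-fold and 22-fold lower. Without replicates 9 and 15 the control difference was -3.66 (adjusted p = 8.92e-05), or 12.7-fold. Trehalase, Treh, which splits trehalose, ranged over 6.93 to 9.50 in deleted and 5.82 to 8.20 in control tumours, against 10.61 to 10.93 in deleted and 10.73 to 11.20 in control epithelial cells; it fell, with differences of -2.24 in deleted and -3.79 in control tumours (adjusted p = 0.00258 and 4.30e-05). Maltase-glucoamylase, Mgam, fell less, with differences of -1.27 in deleted and -1.60 in control tumours (adjusted p = 0.00396 and 8.52e-04).

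Sucrase-isomaltase, Sis, which completes starch and sucrose digestion, varied widely among the tumours. It was 11.07, 10.90 and 11.88 in deleted and 11.04, 11.51 and 7.57 in control male tumours, and 11.35, 11.04 and 9.87 in deleted and 10.89, 11.27 and 7.29 in control female tumours. Deleted epithelial cells had 11.88, 12.64 and 12.74 and control epithelial cells 12.86, 12.61 and 12.67. The low values of 7.57 and 7.29 are those of replicates 9 and 15, and the other 10 tumours reached 9.87 to 11.88. The difference was -1.40 ± 0.81 (SE, adjusted p = 0.135) in deleted tumours and -2.79 ± 0.81 (SE, adjusted p = 0.00725) in control tumours, where it passed the test. Without replicates 9 and 15 the control difference was -1.54 (adjusted p = 0.00125).

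All 4 sugar transporters were lower in tumours of both genotypes. Slc2a2 encodes GLUT2, which passes glucose and fructose out of the enterocyte across the basolateral membrane. It was 8.82, 8.93 and 9.69 in deleted and 8.24, 8.16 and 6.28 in control male tumours, 9.36, 8.96 and 7.22 in deleted and 8.09, 8.17 and 5.83 in control female tumours, 10.86, 11.63 and 11.79 in deleted epithelial cells and 11.72, 11.70 and 11.96 in control epithelial cells. The differences were -2.60 ± 0.55 (SE, adjusted p = 7.92e-04) in deleted and -4.33 ± 0.55 (SE, adjusted p = 1.07e-05) in control tumours, with no overlap between tumours and epithelium. Slc5a4a, of the sodium and glucose cotransporter family, was 4.83 to 7.63 in deleted and 4.56 to 6.27 in control tumours and 9.57 to 10.51 in deleted and 9.56 to 10.31 in control epithelial cells. It fell, with differences of -3.75 in deleted and -4.38 in control tumours (adjusted p = 3.15e-05 and 5.07e-06); but 6 of its 12 tumour values were under the array median of all probe sets, where dim signal cannot be told from background, and whether its probe set also reads the close paralog Slc5a4b was not tested. The fructose transporter Slc2a5 fell, with differences of -2.13 in deleted and -3.44 in control tumours, and the main glucose cotransporter Slc5a1 with differences of -1.97 in deleted and -2.87 in control tumours, with adjusted p between 0.00186 and 1.06e-04.

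Of the 6 genes of peptide digestion, 4 fell in deleted tumours and 6 in control tumours. Tmprss15, enteropeptidase, which starts the activation of pancreatic trypsinogen, was 5.35, 7.91 and 6.72 in deleted and 6.31, 4.54 and 4.59 in control male tumours, and 8.05, 8.24 and 3.76 in deleted and 5.70, 5.49 and 5.002 in control female tumours. Epithelial cells had 8.57, 9.53 and 9.51 with Stat3 deleted and 9.28, 9.81 and 10.08 in controls. It fell in tumours, with differences of -2.53 ± 0.77 (SE, adjusted p = 0.0092) in deleted and -4.45 ± 0.77 (SE, adjusted p = 1.76e-04) in control samples, and 7 of its 12 tumour values were under the array median of all probe sets, where dim signal cannot be told from background. The deleted tumours spread from 3.76 to 8.24, and their range enclosed that of the control tumours.

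The aminopeptidases Anpep and Enpep and the dipeptidyl peptidase Dpp4 trim peptides from their amino end. Dpp4 fell in tumours, with differences of -1.86 ± 0.53 (SE, adjusted p = 0.00631) in deleted and -2.999 ± 0.53 (SE, adjusted p = 2.16e-04) in control samples. Enpep was 8.83 at the lowest, 9.19 at the median and 10.68 at the highest in deleted tumours and 6.71 at the lowest, 10.31 at the median and 11.01 at the highest in control tumours, against 11.41, 11.79 and 12.12 in deleted and 12.29, 12.23 and 12.31 in control epithelial cells. It fell, with differences of -2.19 in deleted and -2.88 in control tumours (adjusted p = 0.0217 and 0.00485). The call in deleted tumours was lost without deleted epithelial replicate 5 or 6 (adjusted p = 0.0547 and 0.0731), and the control difference without replicates 9 and 15 was -1.72 (adjusted p = 0.00208). Anpep differed by -1.48 in deleted tumours (adjusted p = 0.0537), none of which reached the deleted epithelial cells, and fell in control tumours with a difference of -2.39 (adjusted p = 0.00479), or -1.41 (adjusted p = 0.00113) without replicates 9 and 15. Mep1a and Mep1b encode the subunits of meprin, a metalloprotease. Of the 12 tumour values of Mep1a, 5 were under the array median. In deleted tumours Mep1a fell with a difference of -2.53 ± 0.56 (SE, adjusted p = 0.00112), while Mep1b differed by -0.97 ± 0.55 (SE, adjusted p = 0.128). In control tumours they fell, with differences of -2.42 and -2.47 (adjusted p = 0.00163 and 0.00124).

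All 4 carriers of peptides and amino acids fell in tumours of both genotypes. Slc6a19 takes up neutral amino acids with sodium. It was 8.28, 9.56 and 10.57 in deleted and 9.46, 11.20 and 6.66 in control male tumours, 10.47, 9.65 and 7.68 in deleted and 8.81, 8.91 and 6.05 in control female tumours, 11.98, 12.06 and 11.79 in deleted epithelial cells and 11.95, 12.005 and 12.41 in control epithelial cells. The value of 11.20 in control male tumour replicate 8 came nearest to the epithelial range, while those of replicates 9 and 15 lay lowest. The difference was -2.58 ± 0.84 (SE, adjusted p = 0.0131) in deleted and -3.61 ± 0.84 (SE, adjusted p = 0.00169) in control tumours. Slc15a1, the oligopeptide transporter PEPT1, fell, with differences of -2.41 in deleted and -3.34 in control tumours (adjusted p = 0.00573 and 6.43e-04). Slc3a1 and Slc7a9 form the exchanger of cystine and dibasic amino acids; Slc3a1 fell, with differences of -1.61 in deleted and -2.84 in control tumours and Slc7a9 with differences of -1.23 in deleted and -2.37 in control tumours, with adjusted p of 0.0213 and 0.0456 in deleted tumours. These calls were lost without deleted epithelial replicate 5 (adjusted p = 0.06 for Slc3a1 and 0.108 for Slc7a9) or 6 (0.0706 and 0.108), and that of Slc7a9 also in further alternatives.

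Enpp7, alkaline sphingomyelinase, and Alpi, intestinal alkaline phosphatase, both fell in control tumours, and Enpp7 also in deleted tumours. Enpp7 was 6.13 at the lowest, 7.04 at the median and 9.29 at the highest in deleted tumours and 5.24 at the lowest, 7.25 at the median and 9.28 at the highest in control tumours, against 11.53, 11.33 and 10.86 in deleted and 11.29, 11.05 and 11.74 in control epithelial cells. It fell in tumours, with differences of -3.86 ± 0.74 (SE, adjusted p = 4.20e-04) in deleted and -4.28 ± 0.74 (SE, adjusted p = 1.73e-04) in control samples, with no tumour in the epithelial range. Alpi was 11.38, 12.39 and 12.51 in deleted and 12.27, 11.35 and 9.75 in control male tumours, 12.31, 12.62 and 11.16 in deleted and 11.59, 11.99 and 10.70 in control female tumours, 12.31, 12.62 and 12.67 in deleted epithelial cells and 12.55, 12.67 and 12.77 in control epithelial cells. Several deleted tumours lay within the epithelial range. The difference of Alpi was -0.47 ± 0.45 (SE, adjusted p = 0.36) in deleted and -1.39 ± 0.45 (SE, adjusted p = 0.0129) in control tumours. Without replicates 9 and 15 the control difference was -0.86 (adjusted p = 0.0376).

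The 5 ion and anion transporters included Slc5a12, with the largest falls of the set, and Slc9a3, which passed in neither genotype. Slc5a12, a sodium-coupled carrier of lactate and other monocarboxylates, was 5.28, 5.57 and 7.52 in deleted and 7.10, 7.19 and 5.22 in control male tumours, 7.47, 4.78 and 5.96 in deleted and 6.80, 6.31 and 4.53 in control female tumours, 10.04, 10.79 and 10.79 in deleted epithelial cells and 10.56, 10.49 and 11.68 in control epithelial cells. Every tumour lay more than 2 below every epithelial array. The difference of -4.44 ± 0.64 (SE, adjusted p = 5.12e-05) in deleted tumours, 21.8-fold, was number 2 among the falls of all 17316 tested genes, and that of -4.72 ± 0.64 (SE, adjusted p = 2.09e-05) in control tumours, 26.3-fold, was the largest fall. These folds and ranks rest on dim tumour values, since 5 of the 12 were under the array median of all probe sets, where signal cannot be told from background. Without replicates 9 and 15 the control difference of Slc5a12 was -4.06 (adjusted p = 4.42e-05), smaller in size than the -4.21 of Tmprss15.

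Slc9a3 encodes NHE3, which exchanges sodium for protons and drives much of the gut's salt uptake. It was 10.61, 10.77 and 10.32 in deleted and 11.17, 9.99 and 11.41 in control male tumours, 10.01, 10.35 and 10.72 in deleted and 11.25, 11.21 and 11.35 in control female tumours, 10.67, 11.05 and 10.29 in deleted epithelial cells and 11.04, 10.82 and 10.54 in control epithelial cells. Tumour and epithelial values overlapped in both genotypes. The difference was -0.20 ± 0.26 in deleted samples and 0.26 ± 0.26 in control samples (SE, adjusted p = 0.501 and 0.381). In control samples it was -0.01 after quantile normalisation (adjusted p = 0.964) and passed as a rise of 0.48 (adjusted p = 0.038) without control male tumour replicate 8, the lowest tumour at 9.99, against 32.8% of all tested genes that then rose.

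The phosphate transporter Slc34a2 fell in tumours of both genotypes, with differences of -1.80 in deleted and -1.41 in control tumours (adjusted p = 3.81e-05 and 2.10e-04). The sulphate transporter Slc13a1 and the chloride and bicarbonate exchanger Slc26a3 differed by -1.29 and -0.52 in deleted tumours (adjusted p = 0.137 and 0.484). In control tumours both fell, with differences of -2.80 and -1.96 (adjusted p = 0.00441 and 0.0135). Without replicates 9 and 15, the control difference of Slc26a3 was -1.34 (adjusted p = 0.0556).

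Cubn and Amn form the receptor for vitamin B12 bound to intrinsic factor, in which Amn anchors cubilin in the membrane. Cubn was 5.71, 6.02 and 7.51 in deleted and 7.65, 7.66 and 7.94 in control male tumours, 7.77, 5.66 and 6.53 in deleted and 6.45, 6.40 and 7.36 in control female tumours, 8.98, 10.27 and 10.46 in deleted epithelial cells and 9.89, 10.22 and 11.004 in control epithelial cells. Replicate 9 was the highest tumour for Cubn, unlike for most members. The differences were -3.37 ± 0.46 (SE, adjusted p = 3.42e-05) in deleted and -3.13 ± 0.46 (SE, adjusted p = 4.25e-05) in control tumours. Amn fell, with differences of -2.39 in deleted and -2.11 in control tumours (adjusted p = 5.77e-06 and 1.07e-05), with tumours at 6.83 to 7.66 when deleted and 6.66 to 8.20 in controls, against 9.39 to 9.91 in deleted and 9.09 to 9.84 in control epithelial cells.

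Of the 3 maturity markers, 2 fell in deleted tumours and 3 in control tumours. Vil1, villin, which bundles the actin of microvilli and whose promoter drove the Cre, was 11.18, 11.66 and 11.70 in deleted and 11.71, 11.19 and 10.42 in control male tumours, 11.75, 11.78 and 11.33 in deleted and 11.50, 11.33 and 10.52 in control female tumours, 12.19, 12.44 and 12.31 in deleted epithelial cells and 12.45, 12.37 and 12.56 in control epithelial cells. Its difference was -0.75 ± 0.25 (SE, adjusted p = 0.0153) in deleted tumours and -1.34 ± 0.25 (SE, adjusted p = 3.10e-04) in control tumours, in both the smallest in size of those that passed. The call in deleted tumours was lost without deleted epithelial replicate 5 (adjusted p = 0.0555). Ada, adenosine deaminase, fell, with differences of -1.66 in deleted and -2.92 in control tumours (adjusted p = 0.0153 and 3.66e-04). Krt20, a keratin of mature gut epithelium, differed by -0.81 in deleted tumours (adjusted p = 0.111) and fell in control tumours with a difference of -1.61 (adjusted p = 0.00473), or -0.97 (adjusted p = 0.00293) without replicates 9 and 15.

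Further digestive, transport, microvillus and transcription factor genes were mostly lower in control tumours too. Of 12 further hydrolases tested, 11 fell and 0 rose, among them the carboxylesterase Ces2a (-3.94) and the peptidases Mme (-3.51), Naaladl1 (-3.22) and Xpnpep2 (-3.05). Of 31 further nutrient, vitamin and mineral transporters, 26 fell and 1 rose; the falls included the vitamin C transporter Slc23a1 (-3.80), the inositol cotransporter Slc5a11 (-3.66), the nucleoside transporter Slc28a1 (-3.65) and the hexose transporter family member Slc2a7 (-3.60). Of 22 microvillus structure genes 18 fell and 0 rose, led by the scaffold Pdzk1 (-4.02), with the protocadherin Cdhr2 (-2.22), which links microvillus tips, Anks4b (-1.97) of the same links and the scaffold Slc9a3r1 (-1.92). Among 18 enterocyte transcription factors 12 fell and 2 rose, with the nuclear receptor Nr1i3 (-2.37), Hnf4g (-2.27), Creb3l3 (-2.14) and Maf (-1.98) the largest falls. In deleted tumours the falls numbered 8 of 12 hydrolases, 22 of 31 transporters, 15 of 22 microvillus genes and 8 of 18 transcription factors. Of all tested genes, 36.2% were lower in deleted tumours, and the 8 of 18 transcription factors lie not far above that share. In control tumours 35.3% of all tested genes were lower and 30.4% higher.

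Fibroblast, muscle, endothelial, macrophage and neutrophil genes, and stem and WNT target genes, were mostly higher in tumours. Their part in the falls was not tested. In deleted tumours relative to deleted epithelial cells, 11 of 13 fibroblast genes, 6 of 6 smooth muscle genes, 7 of 7 endothelial genes, 9 of 11 macrophage genes, 3 of 8 neutrophil genes and 9 of 11 stem and WNT target genes rose. In control tumours relative to control epithelial cells, 12 of 13 fibroblast genes, 6 of 6 smooth muscle genes, 7 of 7 endothelial genes, 11 of 11 macrophage genes, 7 of 8 neutrophil genes and 10 of 11 stem and WNT target genes rose, and 0 of any of these lists fell in either genotype. Of all tested genes, 30.3% rose and 36.2% fell in deleted samples, and 30.4% rose and 35.3% fell in control samples. The 3 of 8 neutrophil genes in deleted tumours lie near the share that rose. The mean of the smooth muscle genes on an array was 7.56 to 9.52 in tumours, against 5.67 to 6.25 in epithelial cells. For the endothelial genes it was 7.32 to 7.99 in tumours, against 5.21 to 5.51 in epithelial cells. Over the macrophage genes it was 6.94 to 8.84 in tumours, against 5.84 to 6.22 in epithelial cells. For the neutrophil genes it was 5.46 to 7.81 in tumours, against 4.67 to 5.13 in epithelial cells. Over the stem and WNT target genes it was 8.93 to 9.79 in tumours, against 6.80 to 7.43 in epithelial cells. T and NK cell genes were lower in tumours in 10 of 12 cases in deleted and 5 of 12 in control samples. The latter lies not far above the share of all tested genes. Of 7 goblet cell genes 2 rose and 1 fell in deleted and 2 rose and 3 fell in control samples. Of 13 general epithelial genes 4 rose and 4 fell in deleted tumours, with a median difference of 0.06, and 4 rose and 2 fell in control tumours, with a median of 0.02. With each array set relative to the mean of its general epithelial genes, 24 of the 30 brush-border genes were lower in deleted tumours (40.1% of all tested genes) with a median of -2.04, and 29 in control tumours (42.7% of all tested genes) with a median of -3.03; this scaling moved the median over all tested genes to -0.20 and -0.26.

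**Figure D3:**
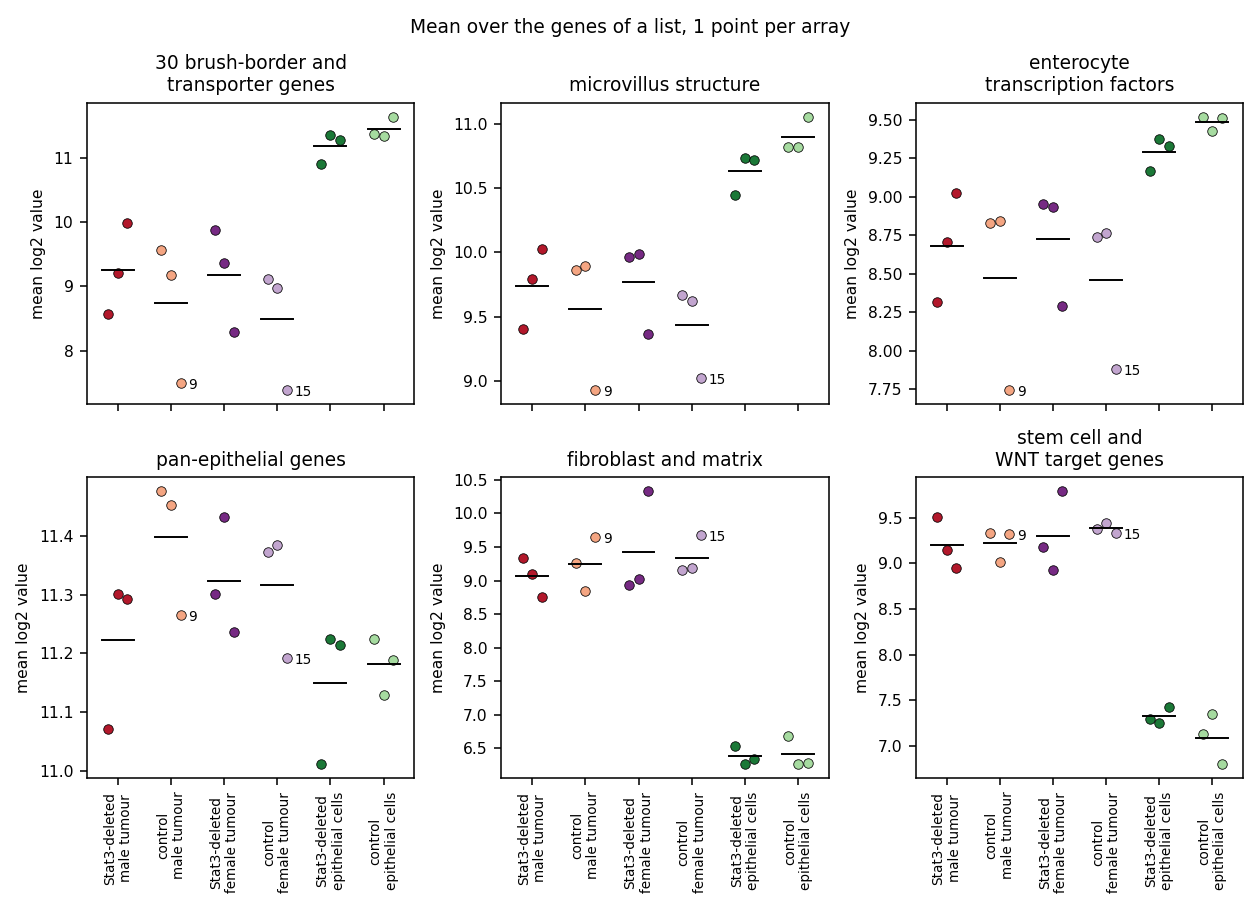
Each point is the mean log2 value of a gene list on an array, by group, with Stat3-deleted groups left of their controls and lines at the group means. The brush-border mean is lowest in control tumours 9 and 15, at 7.50 and 7.39, and highest in epithelial cells at 10.90 to 11.64, while the general epithelial mean stays between 11.01 and 11.48.

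The tumours varied far more than the epithelial arrays. The median over the 30 genes of the pooled standard deviation within groups was 1.10 in tumours and 0.26 in epithelial cells, against 0.23 and 0.21 over all tested genes. The range over the 12 tumours ran from 1.35 for Vil1 to 5.44 for Lct, and it exceeded the range over the 6 epithelial arrays in 30 of 30 genes. Replicates 9 and 15 were both below all other 10 tumours in 22 of the 30 genes, against 6.23% of tested genes, and both above them in 1, Slc9a3, against 9.98%. The 7 genes in neither set were Slc5a4a, Mep1a, Tmprss15, Slc34a2, Slc13a1, Slc5a12 and Cubn. The brush-border mean was 7.50 and 7.39 in these arrays and 8.29 to 9.98 in the other tumours. Replicate 8 departed in single genes: Slc13a1 was 5.51, the lowest of all tumours, and Mep1a was 9.08 and Slc6a19 11.20, the highest of all tumours.

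**Figure D4:**
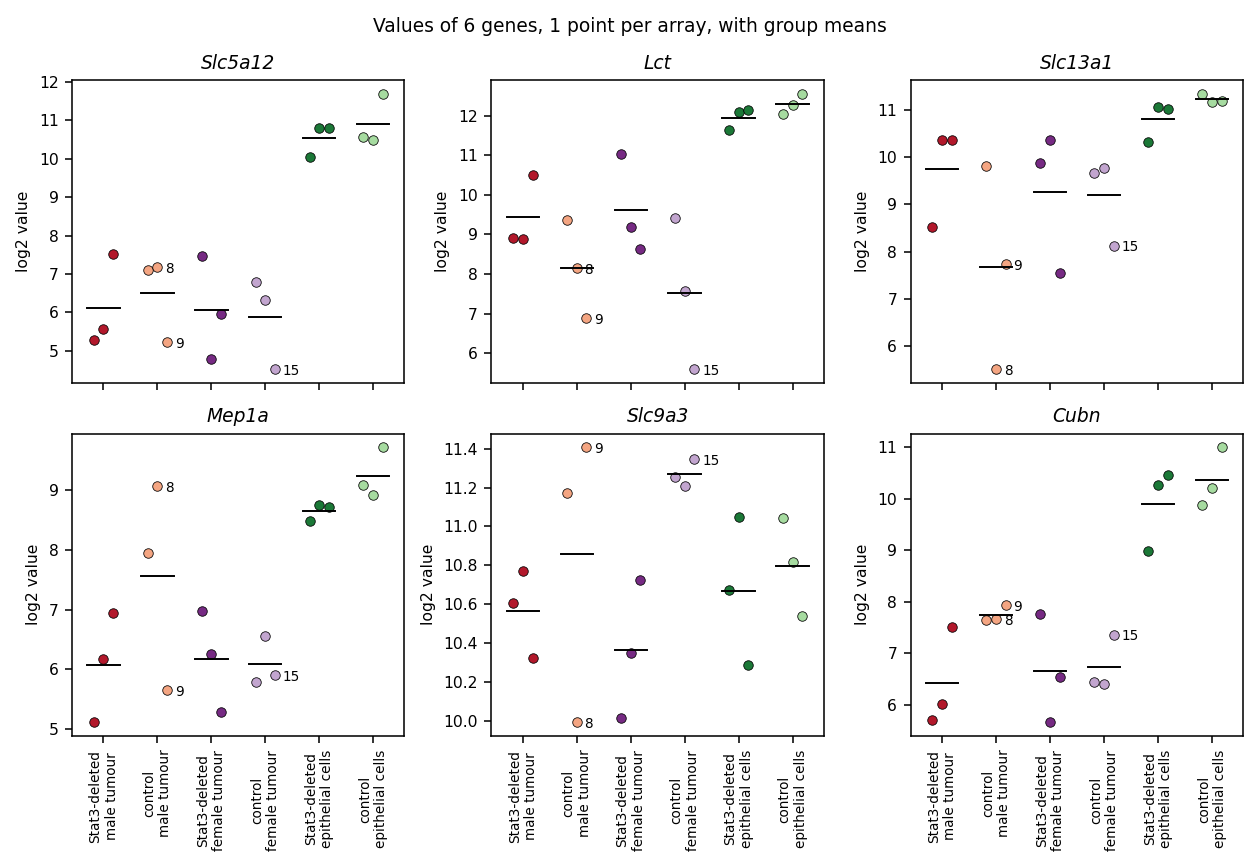
Log2 values (vertical axes) of Slc5a12, Lct, Slc13a1, Mep1a, Slc9a3 and Cubn on every array, by group, with Stat3-deleted groups left of their controls; lines are group means and control tumour replicates 8, 9 and 15 are numbered. Lct is lowest in replicates 9 and 15, Slc13a1 in replicate 8, and Slc5a12 lies below all epithelial arrays in all 12 tumours, while Slc9a3 overlaps between tissues.

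No brush-border gene passed the test for Stat3 deletion in epithelial cells. The count was 0 of 30 in either direction (limma, lowest adjusted p = 0.853), while 0.0231% of all tested genes passed. At an unadjusted p under 0.05 there were 0 of the 30, against 6.8% of all tested genes. The standard errors here rest on a spread per gene fitted over tumours and epithelial cells together. For the brush-border genes the median standard deviation within groups was 1.10 in tumours and 0.26 in epithelial cells. Tumour scatter thus widened these standard errors, and the count of 0 cannot decide whether deletion had smaller effects in epithelial cells. A fit on the 6 epithelial arrays alone, free of tumour scatter, likewise passed no brush-border gene. With 3 arrays a group, that fit cannot decide the question either. In the fit over all arrays, differences ran from -0.61 for Slc26a3 to 0.27 for Amn with standard errors of 0.29 to 0.97. Of these, 28 of 30 were negative, with a median of -0.26 against 0.00 over all tested genes. In 8 genes all 3 deleted arrays lay below all 3 control arrays, against 7.81% of tested genes: Anpep, Dpp4, Enpep, Mep1a, Mep1b, Slc13a1, Slc2a5 and Slc3a1. They include 5 of the 6 peptide digestion genes. Dpp4 was 10.85, 11.50 and 11.33 in deleted and 11.80, 11.66 and 11.95 in control cells, a difference of -0.57 ± 0.62 (SE, adjusted p = 0.853). Deleted replicate 4 was the lowest of the 6 epithelial arrays in each of these 8 genes, and the mean of 12 T and NK cell genes was 8.99 on it, against 6.74 to 7.82 on the other epithelial arrays. The T and NK cell genes had a median difference of 1.28 in this comparison, and their part in the result was not tested. Without replicate 4 the median of the brush-border genes was -0.17.

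Stat3 deletion in tumours likewise gave 0 of 30 calls in each sex. In male tumours 0.231% of all tested genes passed, 24 of the 30 differences were positive, the median was 0.50 against -0.04 over all tested genes, and 6 of 30 had an unadjusted p under 0.05, against 7.52% of all tested genes. In female tumours 0.104% of all tested genes passed, 27 were positive, the median was 0.76, and 2 of 30 had an unadjusted p under 0.05, against 5.03% of all tested genes. Over both sexes 0.71% passed, 24 were positive, the median was 0.79, 11 of 30 had an unadjusted p under 0.05, against 12% of all tested genes, and the lowest adjusted p was 0.198, for Slc2a2. The pooled spread narrowed the members' standard errors in tumours, since their median standard deviation was 1.10 there and 0.26 in epithelial cells. Over all tested genes these were 0.23 and 0.21. The members' unadjusted counts may thus be too high beside the shares of all tested genes. The positive medians rested on replicates 9 and 15: without both, the medians were -0.02 in males, 0.17 in females and 0.00146 over both sexes, with 14, 20 and 15 positive differences. Leaving out other arrays could raise them. Without deleted female replicate 18 the median was 1.15 in females and 1.04 over both sexes, and without control male replicate 7 it was 0.99 in males.

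Single genes show how far the groups overlapped. Slc2a2 was the only member with all deleted male tumours above all control male tumours, against 2.06% of tested genes; the difference was 1.59 ± 0.63 (SE, adjusted p = 0.576). Cubn was the only member below without overlap in males, against 8.03% of tested genes, with a difference of -1.33 ± 0.53 (SE, adjusted p = 0.577). In females Slc9a3 alone lay below without overlap, against 10.4% of tested genes, with a difference of -0.91 ± 0.30 (SE, adjusted p = 0.685). Mep1a was 5.11, 6.17 and 6.94 in deleted and 7.96, 9.08 and 5.66 in control male tumours, a difference of -1.49 (adjusted p = 0.62) that became -2.44 (adjusted p = 0.039) without replicate 9, when 0.173% of all tested genes fell. Over both sexes Slc9a3 differed by -0.60 ± 0.21 (SE, adjusted p = 0.238), and by -0.81 (adjusted p = 0.0255) without replicate 8, when 0.67% of all tested genes fell.

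Weighting the arrays by their scatter changed these counts, over all tested genes as well as among the members. With limma's array weights, 5 genes passed as higher over both sexes, Treh (1.55, adjusted p = 0.0293), Slc5a1 (0.98, 0.0476), Slc2a2 (1.49, 0.0216), Tmprss15 (1.73, 0.0428) and Ada (1.35, 0.0277), and Slc9a3 passed as lower (-0.86, 0.00459), while 2.7% of all tested genes passed as higher and 5.47% as lower. With the same weights Slc9a3 passed as lower in female tumours (-1.03, 0.00615), against 2.73% of all tested genes. Without deleted female tumour replicate 18, Treh, Tmprss15 and Ada passed as higher over both sexes, against 0.624% of all tested genes.

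**Figure D5:**
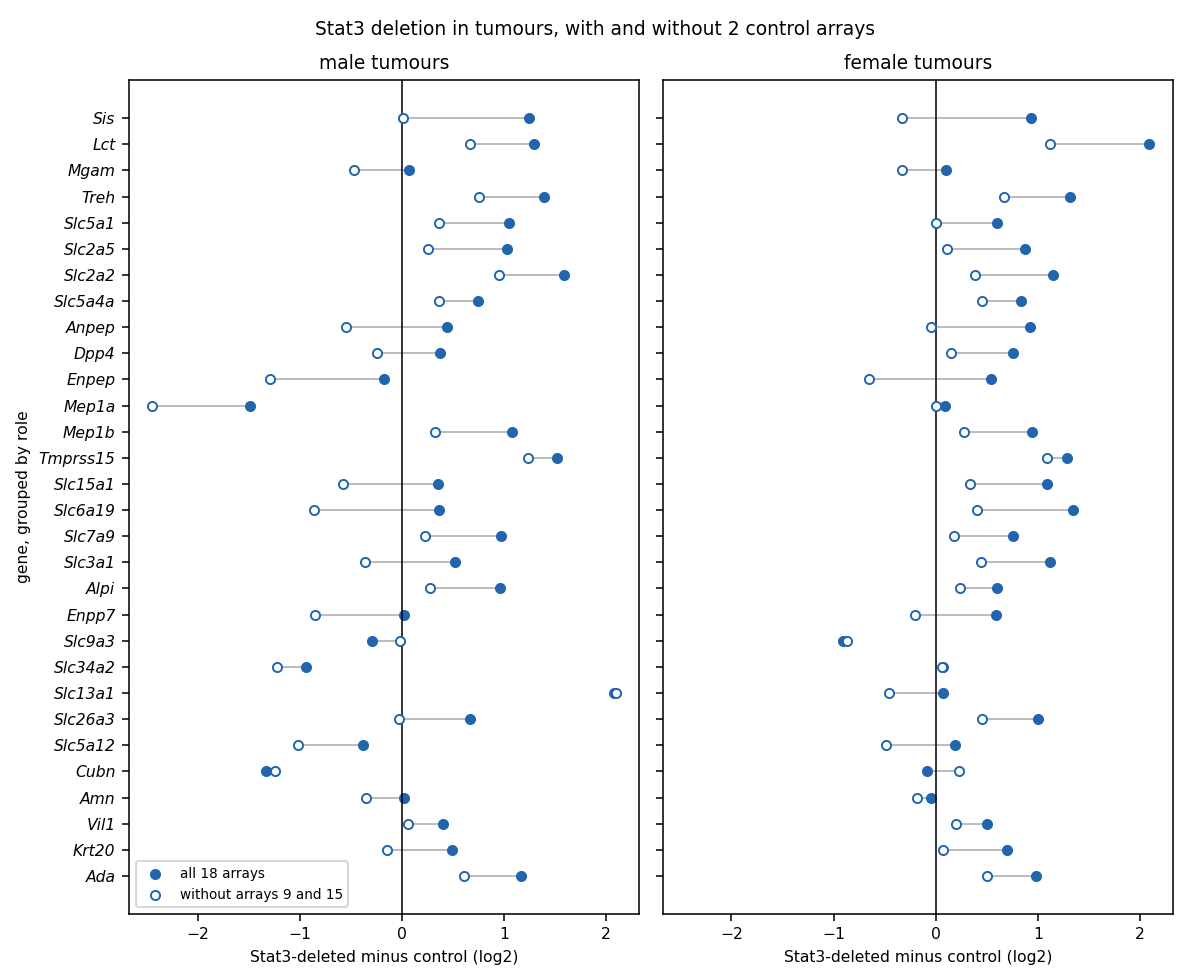
Differences of the 30 genes between Stat3-deleted and control tumours (log2, horizontal axis, same scale in each panel) in male and female tumours, with all arrays (filled points) and without control replicates 9 and 15 (open points). The medians of 0.50 in males and 0.76 in females become -0.02 and 0.17.

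The effect of deletion in tumours minus that in epithelial cells passed for 0 of 30 genes, against 0.0116% of all tested genes, with a lowest adjusted p of 0.514 (limma), and 1 gene had an unadjusted p under 0.05, against 9.38% of all tested genes. Its median was 0.93, or 0.52 without control male tumour replicate 9 and 0.25 without replicates 9 and 15 together. Without deleted female tumour replicate 18 it was 1.22. The effect in female tumours minus that in male tumours passed for 0, against 0% of all tested genes, and 1 gene had an unadjusted p under 0.05, against 0.936%. Its median was 0.09, but -0.41 without replicate 15 and 0.73 without replicate 9, so its sign changed without 1 array. Male tumours minus female tumours, averaged over genotypes, gave 0 calls, against 0.0231% of all tested genes, and 0 genes at an unadjusted p under 0.05, against 6.13%. Its median was 0.17, but -0.18 without replicate 15 and 0.46 without replicate 9, so here too the sign changed.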

How the data were processed

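RNA of 18 arrays was hybridised on an Affymetrix whole-transcript platform. The values used were the deposited log2 expression values; per the submitters' processing notes they were made with RMA, in a version not given in the sources used here. Over all arrays the authors' log2 values of 35556 probe sets ranged from 1.33 to 14.6, with array medians of 5.88 to 6.07. With no detection call per probe set, precision rests on the number of arrays.

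Of the probe sets, 21789 had 1 gene symbol in the platform annotation, 1621 had several and 12146 were not named. A gene was represented by its probe set with the highest mean over 18 arrays, giving 19938 genes, of which 17316 passed the filter (above the array's 25th percentile in at least 3 arrays). A model with 6 group means was fitted to all arrays in limma 3.58.1 (R 4.3.3) with an intensity trend; tests were two-sided, with Benjamini-Hochberg adjustment over all tested genes and a threshold of 0.05. Tumours of both sexes enter as the mean of the sex-specific differences. The code was tested on simulated data. Promoter sequences and motif matches come from RefSeq windows.

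Any member could be named; of the other lists, up to 4 genes that passed with the largest differences were named, and Stat3, Gata4, Hoxd13 and Car1 as checks. The members and lists were chosen with earlier results of these data known. Alternatives were other normalisation, filters, moderation, array weights, probe set averaging, scaling to general epithelial genes, fits on fewer groups, male tumours only, and leaving arrays out.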

Additional observations from a re-analysis of the deposited data

How the results depend on the processing

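In 580 combinations of a gene and an alternative for the 29 falls in control tumours, 28 genes passed in all; Slc26a3 was the exception. Of the 22 falls in deleted tumours 18 passed in all alternatives, Slc7a9, Enpep, Slc3a1 and Vil1 being lost in 12 of 440 combinations, and no call reversed. Leaving out 1 array at a time gave 28 to 29 falls and 0 to 1 rise (Slc9a3, without control male tumour replicate 8) in control tumours, and 18 to 23 falls in deleted tumours, the fewest without deleted epithelial replicate 5. For deletion in male tumours it gave 0 to 1 fall (Mep1a, without replicate 9). For both sexes it gave 0 to 3 rises (without replicate 18) and 0 to 1 fall (Slc9a3, without replicate 8). Array weights gave 1 fall in female tumours (Slc9a3), and 5 rises and 1 fall over both sexes. Without replicates 9 and 15 together there was 1 fall in male tumours (Mep1a), and the median over both sexes was 0.00146. The cause of these changes was not tested, beyond the smaller number of arrays.

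No paired analysis was possible because the replicate numbers 1 to 18 are unique over the series. Groups of 3 arrays limit what can be called: standard errors of the members' deletion differences within a tissue or sex reached 0.97. In epithelial cells these standard errors also carry the scatter of the tumours, since the model was fitted to all arrays. In tumours they were narrowed by the smaller scatter of the epithelial cells. No batch or scan date was given.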
